A study of Mus musculus with 4 samples.

Results

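The aminoacyl-tRNA synthetase genes were followed through direct RNA nanopore libraries of J1 mouse embryonic stem cells. Members were set by a rule on symbols: every symbol of the form Xars, Xars1 or Xars2, together with Eprs, Farsa, Farsb, Aimp1 and Aimp2. The rule was proposed with earlier results of these data known, so counts of members beside all genes are description only. It gave 39 of the 13831 symbols in the deposited table and 8997 of the 1903919 reads with a tail length above 0. The members were 20 cytosolic enzyme genes, 17 genes for mitochondrial enzymes, and the scaffold genes Aimp1 and Aimp2. Reads were found in all 4 libraries for 36 members, and Lars2, Nars2 and Vars2 lacked reads in at least 1 library. The cells were grown in serum with LIF and received no treatment. Each genotype, wild type (WT) or knocked out for the RNA helicase gene Mov10 (KO), was sequenced in 2 libraries, numbered WT 1 and WT 2 for one and KO 1 and KO 2 for the other. Nothing in the labels says how many KO clones were used or whether replicates came from separate cultures, so p-values measure only the spread between these libraries, which may be technical.

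Aminoacyl-tRNA synthetases join each amino acid to its tRNA, the step at which the genetic code is read into protein. The enzymes fall into class I and class II, which have unrelated catalytic folds. In the cytosol of animal cells, several enzymes are held in a multi-synthetase complex by non-catalytic scaffold proteins, among them Aimp1 and Aimp2. Mitochondria have their own enzymes, mostly encoded by separate nuclear genes whose symbols end in 2, while Kars and Gars each supply both compartments. Many cytosolic synthetase genes are known targets of ATF4, a transcription factor of the amino acid stress response. The poly(A) tail at the 3′ end of a messenger RNA protects it from decay and aids its translation.

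Sequencing depth ranged from 351133 reads in WT 2 to 683239 reads in KO 1, of which 1660 to 3414 reads per library belonged to members. Mov10 had 26 reads (WT 1), 14 (WT 2), 0 (KO 1) and 1 (KO 2) (limma, adjusted p = 0.0553). All 12 stem cell markers examined had reads. Of 10 fibroblast markers, 9 had no read in any library and Thy1 had 20 reads in all. The 10 endoderm and early lineage markers had 19 reads in all, and 4 had none. The summed level of the stem cell markers was 10689 (WT 1), 9681 (WT 2), 8356 (KO 1) and 7100 (KO 2) scaled RPM, lower in both KO libraries. Scaled RPM is a size-corrected reads-per-library unit defined below. Of the 12 markers, 10 had a log2 change in read number below 0 and 2 above, where 49.4% of all tested genes were above 0. Both KO libraries were below both WT libraries for 6 markers (20.5% of all tested genes) and above them for 1 (20%). Zfp42 (log2 change -1.02, and -0.61 without WT 1) was lower and Lin28a (1.40) higher in KO (limma, adjusted p = 0.160 and 0.1805). The markers with the most reads, Dppa5a and Pou5f1, had log2 changes of -0.34 and -0.37 (limma, adjusted p = 0.575 and 0.579). Whether this shift has a part in the synthetase values was not tested. WT 1 stood apart in how reads were assigned to transcripts. Among 965 genes with at least 2 well-read transcripts, the most-read transcript held a median of 77.6% of reads in WT 1, against 66.7% (WT 2), 66.7% (KO 1) and 68.2% (KO 2), and 61.1% of these genes had their highest share in WT 1. Many of the values below that moved without WT 1 are also given without it.

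Promoter sequences from RefSeq (GRCm38.p6, 250 bases before to 50 after the start of each gene) were found for 29 of the 39 members. The promoters were searched on both strands for TGATGNAA, the core of the amino acid response element through which ATF4 acts. It occurred in 5 of the 31 member promoters, those of Aars, Gars, Iars, Tars and Yars, all cytosolic, and in 3.97% of all 32851 promoters. Matches upstream of the start site are shown because ATF4 and its target genes were also measured here. The capitals mark the match, which on the gene's own strand reads as the reverse complement.
Aars, chr8:111033704-111033763, plus strand: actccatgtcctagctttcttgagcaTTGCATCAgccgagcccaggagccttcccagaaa
Gars, chr6:55037941-55038000, plus strand: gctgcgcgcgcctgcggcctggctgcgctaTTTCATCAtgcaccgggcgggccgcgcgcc
Tars, chr15:11399659-11399718, minus strand: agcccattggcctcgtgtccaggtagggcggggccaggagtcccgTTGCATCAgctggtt
The match began 112 bases before the start site in Aars, 30 bases before it in Gars and 15 bases before it in Tars. In Iars and Yars it lay just after the start site, and Aars had a further match there. Other motifs searched the same way were CCAAT, found in 15 of the 31 member promoters and 37.4% of all promoters, and the ETS site CCGGAAG, found in 11 and in 8.86%. The E-box CACGTG was in 5 member promoters and 7.15% of all, and TATAAA in 4 and 13.6%. The palindromic NRF1 site was in 0.971% of all promoters, the CRE TGACGTCA in 1.79%, and neither was in any of the member promoters. CCAAT and the other motifs may overlap one another, and a match of letters does not show that a factor binds.

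The members were read at levels that split by compartment. Levels are given as scaled RPM: reads divided by a median-of-ratios size factor and expressed per 1000000 reads of a library of average size. Each read is 1 molecule, read from its tail, so levels were not divided by length. The 20 cytosolic enzyme genes held 85.1% of member reads, the 17 mitochondrial genes 6.77% and the scaffolds 8.10%. The member with the most reads over all libraries was Gars, the glycyl-tRNA synthetase, with 466 scaled RPM (WT 1), 509 (WT 2), 471 (KO 1) and 479 (KO 2). Its level was nearly the same in every library. Nars, which charges asparagine, came next with 348, 439, 491 and 469.9 in the same order, lowest in WT 1. Among the least-read cytosolic members was Hars, for histidine, with 42.9, 50.0, 58.5 and 57.4. Farsa, the other subunit of the phenylalanine enzyme, had 78.2, 41.7, 51.4 and 53.0, below Hars in every library but WT 1. Iars2, the mitochondrial enzyme for isoleucine, had 47.9, 38.9, 38.5 and 33.1, so its range overlapped that of Hars. The summed level of the mitochondrial enzymes was 323, 322, 309.6 and 327 in the same order, a narrow range. The summed level of the cytosolic enzymes was 3524, 3943, 4214 and 4168, lowest in WT 1.

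**Figure D1:**
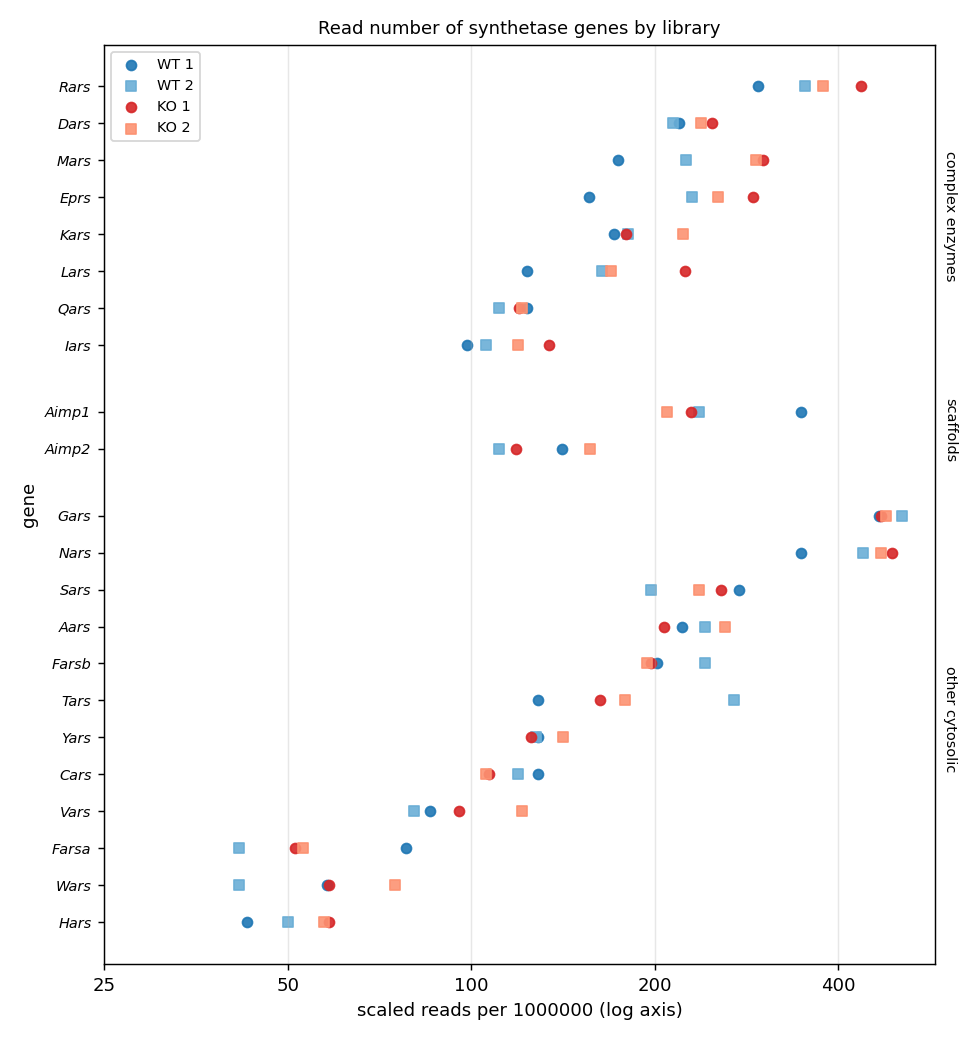
Scaled RPM (log axis) of the 20 cytosolic enzymes and 2 scaffolds, 1 point per library, grouped into enzymes of the multi-synthetase complex, scaffolds and other cytosolic enzymes. The points of Gars lie between 466 and 509, and those of Hars between 42.9 and 58.5.

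Tail length was compared among members through the median over reads of a gene in each library. It was available for 19 members with at least 20 reads in every library: 17 cytosolic enzymes and both scaffolds. Farsa, Hars and Wars and all 17 mitochondrial enzymes fell below that minimum. Over the 19 members, the middle gene median was 94.2 nt (WT 1), 100.1 nt (WT 2), 100.2 nt (KO 1) and 97.0 nt (KO 2). The 1935 genes that met the same minimum had 102.1, 109.3, 110.0 and 102.0 nt in the same order, so the synthetase value lay below the all-gene value in each of the 4 libraries. Between 13 and 14 of the 19 members were under the all-gene median in each library.

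Leucyl-tRNA synthetase, Lars, carried the longest tails of the 19 members in all libraries but WT 2. Its medians were 117.7 nt (WT 1), 119.9 nt (WT 2), 125.7 nt (KO 1) and 128.1 nt (KO 2). In WT 2 it ranked second, after Farsb. Mars, the methionyl-tRNA synthetase that also charges the initiator tRNA, had 82.0, 80.8, 79.6 and 93.8 nt in the same order. It was among the shortest in 3 libraries and higher in KO 2. The scaffold Aimp2 had 75.8, 82.9, 94.1 and 90.7 nt, and Aimp1 had 82.3, 84.2, 96.9 and 94.2 nt. Kars, for lysine, had 82.2, 97.7, 96.9 and 80.9 nt, which split the libraries of each genotype. Gars had 84.4, 85.9, 86.9 and 97.1 nt, below the middle of the members in WT 1, WT 2 and KO 1 but not in KO 2. The tails of Lars were longer than those of Mars, Aimp1, Aimp2, Kars and Gars in every library. Most members between these extremes changed places from library to library. Rars, for arginine, was the steadiest, with 98.2, 100.1, 100.5 and 101.9 nt, while Farsb, which pairs with Farsa, ranged from 93.5 nt in WT 1 to 125.7 nt in WT 2. Across the 19 members, Spearman's rho between libraries was highest for KO 1 with KO 2 (0.772) and WT 2 with KO 1 (0.749). It was 0.488, 0.360 and 0.268 for WT 1 with WT 2, KO 1 and KO 2. These correlations are a description over genes that share libraries and depth.

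**Figure D2:**
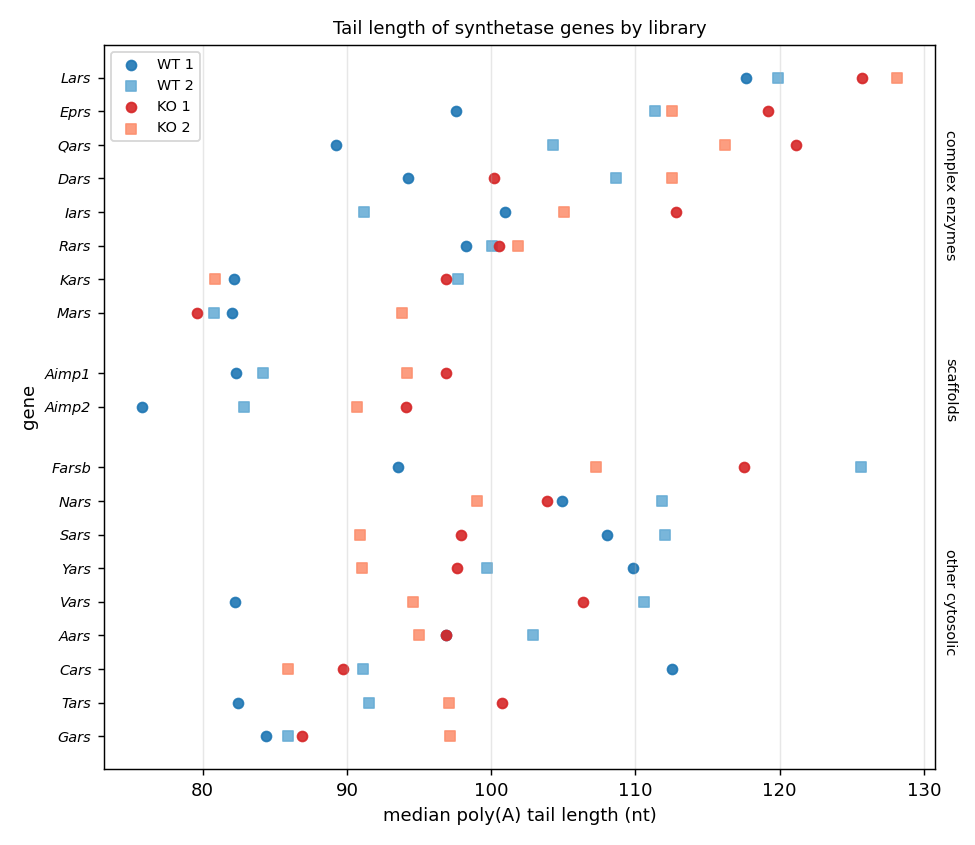
Median poly(A) tail length in nt of the 19 members with at least 20 reads in each library, 1 point per library. Lars lies at 117.7 to 128.1 nt, and Mars, Aimp2 and Gars lie toward the left.

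The effect of Mov10 loss on tail length was tested with limma over all 1935 genes. No member passed an adjusted p of 0.05 (0 of 19), and none had an unadjusted p under 0.05. Over all genes 0 passed, which is 0%, and 45 genes (2.33%) had an unadjusted p under 0.05. The log2 changes of members ranged from -0.22 in Sars to 0.30 in Qars, with a median of 0.07, against a median of 0.01 over all genes. The median standard error for a member was 0.15. Of the 19 members, 13 had a log2 change above 0 (51.8% over all genes). Without WT 1 the members' median was 0.02 and 10 of 19 were above 0, beside a median of -0.05 and 39.3% above 0 over all genes. Without KO 1 the members' median was 0.11, beside -0.04 over all genes. Without WT 2 it was 0.11 over 21 members, beside 0.04, and without KO 2 it was 0.08, beside 0.06.

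Glutaminyl-tRNA synthetase, Qars, an enzyme of the complex, had the largest difference of any member. Its medians were 89.2 nt (WT 1), 104.3 nt (WT 2), 121.1 nt (KO 1) and 116.2 nt (KO 2). Both KO libraries were above both WT libraries, and the means were 96.8 ± 10.7 nt for WT and 118.7 ± 3.50 nt for KO (SD, n = 2 each). The log2 change of 0.30 had a standard error of 0.17 and did not pass (limma, adjusted p = 0.9998, and 0.994 to 0.9999 over the alternatives that kept every library). Without WT 1 it was 0.19, and without WT 2 it was 0.41. It rested on 49, 40, 84 and 55 reads.

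Both scaffolds had higher medians in both KO libraries than in either WT library. Aimp1 had means of 83.3 ± 1.31 nt for WT and 95.5 ± 1.90 nt for KO (SD, n = 2 each), a log2 change of 0.20. Aimp2 had 79.3 ± 5.02 nt for WT and 92.4 ± 2.39 nt for KO (SD, n = 2 each), a log2 change of 0.22. Neither passed (limma, adjusted p = 0.9998 for each), although the gap between groups exceeded the gap within groups for both genes. Aimp2 shares its transcripts with reads named for Eif2ak1, and this holds for all 3 of its transcripts. On these, 127, 112 and 11 reads were named Aimp2 and 5, 4 and 39 Eif2ak1, so Aimp2 had no value on transcripts of a single symbol and its values are uncertain. When each transcript kept only reads of its most frequent symbol, an alternative chosen after seeing the data, the log2 change of Aimp2 was 0.26.

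Other members of the complex with non-overlapping groups, all higher in KO, were Iars, Eprs, Lars and Rars, with log2 changes of 0.18, 0.15, 0.10 and 0.03. Without WT 1 the change was 0.06 for Eprs and 0.0163 for Rars. For Iars, the isoleucine enzyme, the medians were 100.96 and 91.2 nt in WT and 112.8 and 105.1 nt in KO. For Eprs, a fusion of the glutamate and proline enzymes, they were 97.6 and 111.4 nt in WT and 119.2 and 112.5 nt in KO. Tars, the threonine enzyme outside the complex, had 82.5 and 91.5 nt in WT and 100.7 and 97.0 nt in KO, a log2 change of 0.19 that was 0.11 without WT 1. The opposite order was seen in Sars, for serine, with 108.0 and 112.0 nt in WT and 97.9 and 90.9 nt in KO, a log2 change of -0.22. Cars, for cysteine, had 112.6 and 91.1 nt in WT and 89.7 and 85.9 nt in KO, a log2 change of -0.21 that was -0.05 without WT 1. Yars had 109.9 and 99.7 nt in WT and 97.6 and 91.1 nt in KO, and Nars 104.9 and 111.8 nt in WT and 103.9 and 99.0 nt in KO. The groups overlapped for Aars, Dars, Farsb, Kars, Mars and Vars. In all, 9 members, the 7 enzymes Qars, Iars, Eprs, Lars, Rars, Tars and Gars and both scaffolds, were higher in both KO libraries, against 14.7% of all tested genes, and 4 were lower in both, against 11.8%. None of these members passed the test.

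The distribution of tails within a gene was examined next through short tails, under 30 nt, and long tails, of 150 nt or more. Over all member reads, short tails made up 3.26% for WT 1, with a 95% Wilson interval of 2.52 to 4.20%, and 5.54% for WT 2, with one of 4.54 to 6.75%. For KO 1 they made up 2.99% (2.47 to 3.61%), and for KO 2 3.31% (2.64 to 4.15%). The shares over all reads of the same libraries were 2.35, 3.02, 1.55 and 2.75%, lower in each library, although in KO 2 the all-read share lay inside the members' interval. Taken gene by gene, the mean short share of the 19 members was 3.58, 5.57, 2.77 and 3.53%, beside 2.91, 3.77, 1.90 and 3.36% over the 1935 tested genes. Intervals cover counting error only. The KO minus WT difference of the pooled member share was -1.25 percentage points, against a replicate SD of 1.15, and it was -2.39 without WT 1 and -0.105 without WT 2. From lowest to highest the member shares ran KO 1, WT 1, KO 2 and WT 2. The all-read shares stood in the same order, so this order was not particular to members.

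Over all libraries Iars had the highest short share of the 19 members, 18 of its 225 reads (interval 5.12 to 12.3%, which includes the 6.41% of Tars), with 10.3% (WT 1), 13.2% (WT 2), 5.32% (KO 1) and 7.41% (KO 2). These were 4, 5, 5 and 4 reads, and in KO 2 Vars was higher, at 9.09%. Iars also had 28.9% long tails, so its tails spread at both ends. Lars had 0 short reads of 49 (WT 1), 3 of 59 (WT 2), 0 of 157 (KO 1) and 0 of 77 (KO 2), and the upper Wilson limit in KO 1 was 2.39%. Its long share was 36.7, 27.1, 36.9 and 37.7% in the same order, the highest of the 19 members in WT 1, KO 1 and KO 2. Mars, with 12.1% over all its reads, and Yars, the tyrosine enzyme with 12.4%, had the fewest long tails. The interval for Mars ran from 9.55 to 15.3% and that for Lars from 30.5 to 40.6%, so these differ beyond counting error. Aimp1 had short shares of 5.07 and 9.41% in WT and 1.86 and 1.05% in KO, on 7, 8, 3 and 1 reads. Its WT values were both above its KO values, but the intervals of every WT library overlapped those of both KO libraries.

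**Figure D3:**
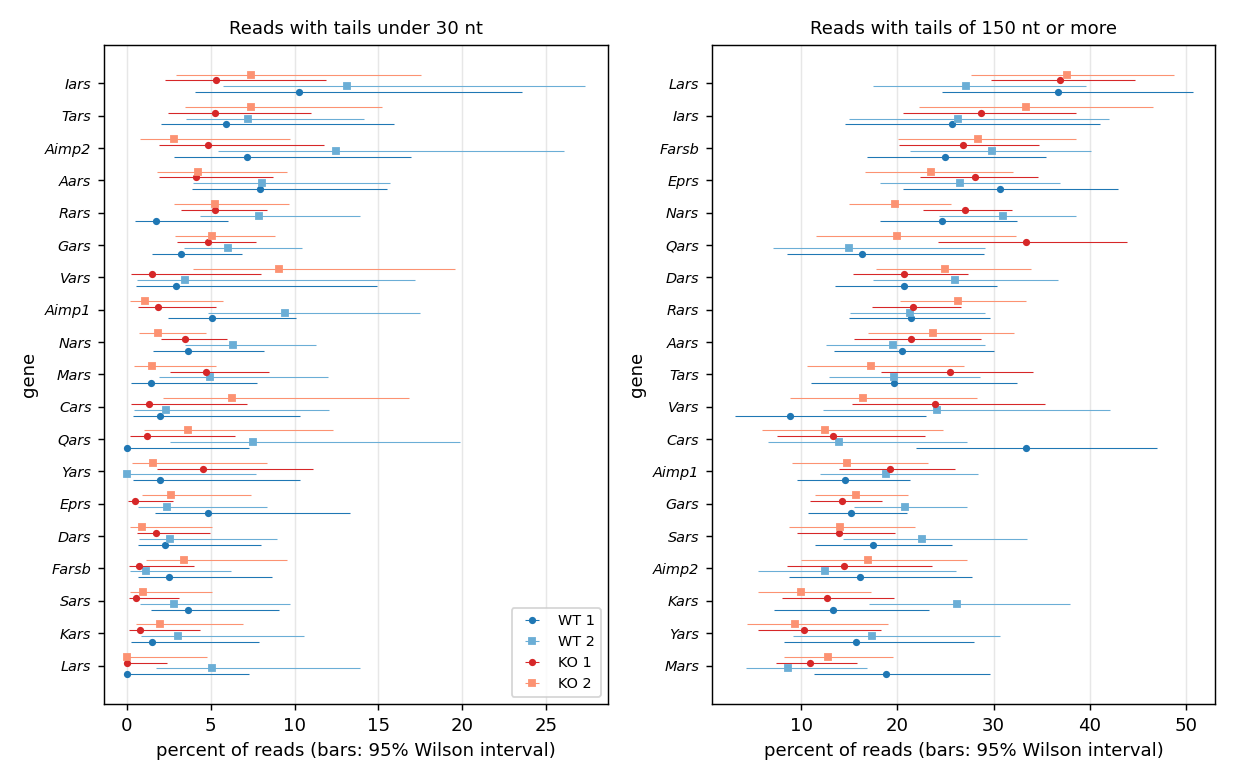
Percent of reads with tails under 30 nt (left) and of 150 nt or more (right) for the 19 members, 1 point per library with its 95% Wilson interval, ordered by the share over all reads. Iars lies at the top for short tails and Lars at the top for long tails, and most intervals within a gene overlap.

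Read number per gene was set against genotype with limma's voom over the 4815 genes that averaged 10 or more reads. In bulk samples, a lower level per cell and fewer cells with the transcript cannot be told apart. Of the 39 members, 28 met this minimum: all 20 cytosolic enzymes, both scaffolds, and 6 mitochondrial enzymes. No member passed an adjusted p of 0.05 (0 of 28), and over all genes 0 passed, which is 0%. Only Mars had an unadjusted p under 0.05, against 498 of the 4815 genes (10.3%). Log2 changes of members ranged from -0.39 in Aimp1 to 0.59 in Mars. The members' median was 0.09, beside -0.01 over all genes. For the 20 cytosolic enzymes it was 0.17, with 14 above 0, and for the 6 mitochondrial enzymes -0.04, with 2 above 0. Over all tested genes, 49.4% were above 0. With scaling by total reads, the all-gene median became 0.11 and that of the cytosolic enzymes 0.29.

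All 8 enzyme genes of the multi-synthetase complex had a log2 change in read number above 0, with a median of 0.32, where 49.4% of all tested genes were above 0. The values were 0.59 for Mars, 0.52 for Eprs, 0.46 for Lars, 0.33 for Rars, 0.31 for Iars, 0.17 for Kars, 0.16 for Dars and 0.03 for Qars, with standard errors of 0.25 to 0.30. None passed (limma, adjusted p from 0.463 for Mars to 0.981 for Qars). Both KO libraries exceeded both WT libraries for 6 of these 8 genes, an order seen in 20% of all tested genes. WT 1 was lower than WT 2 for 6 of the 8. Without WT 1 the median was 0.21 with all 8 above 0, and without WT 2 it was 0.41 with 7 of 8 above 0, Qars being the exception at -0.04.

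Mars had 173.9 scaled RPM (WT 1), 225 (WT 2), 301 (KO 1) and 293 (KO 2). Its KO values were close together and above both WT values, with means of 199.5 ± 36.2 for WT and 297 ± 5.40 for KO (SD, n = 2 each). The change was 0.39 without WT 1 and 0.77 without WT 2. Eprs had 156, 231, 289.7 and 254, and its change was 0.23 without WT 1 and 0.80 without WT 2. Lars had 123, 164, 224 and 169.9, so that WT 2 and KO 2 nearly met, and its change was 0.26 without WT 1. Rars, the most-read enzyme of the complex, had 295, 353, 435 and 377, and its change was 0.20 without WT 1. Qars, which had the largest difference in tail length, had 123, 111, 119.9 and 121 scaled RPM and overlapped between genotypes, with a change of 0.10 without WT 1.

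The scaffolds had read number changes on either side of 0. Aimp1 had 348 scaled RPM (WT 1), 236 (WT 2), 229.7 (KO 1) and 209.6 (KO 2), a log2 change of -0.39 (limma, adjusted p = 0.648). WT 1 was far above the other libraries, and the change was -0.11 without WT 1 and -0.66 without WT 2. Aimp2 had 141, 111, 118 and 157, with overlapping groups and a log2 change of 0.09 that was 0.25 without WT 1. The third non-catalytic protein of the complex, Eef1e1, had 168.9, 113.9, 119.9 and 143, a log2 change of -0.10 that was 0.17 without WT 1.

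Outside the complex, the cytosolic enzymes showed changes in either direction. Wars, for tryptophan, and Vars, for valine, had log2 changes of 0.38 and 0.35, Hars 0.31 and Nars 0.30, and each was higher in both KO libraries. Without WT 1 the change was 0.61 for Wars, 0.19 for Hars and 0.12 for Nars. Cars and Farsb were lower in both KO libraries. Gars, Aars, Yars, Sars and Farsa had overlapping groups, with a log2 change of -0.16 for Farsa. Tars had 129, 269.5, 163 and 179 scaled RPM, so its WT libraries enclosed both KO libraries. By catalytic class, 10 of 13 tested class I genes and 5 of 12 tested class II genes had a log2 change above 0, with medians of 0.27 and -0.02. Over all tested genes, 49.4% were above 0, with a median of -0.01. These classes were not tested against each other. Of the complex enzymes, Iars, Lars, Mars, Qars and Rars are of class I. Eprs, only part of which is of class I, was counted in neither class. Over all 28 members, 10 were higher in both KO libraries (20% of all tested genes) and 4 were lower in both (20.5%).

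**Figure D4:**
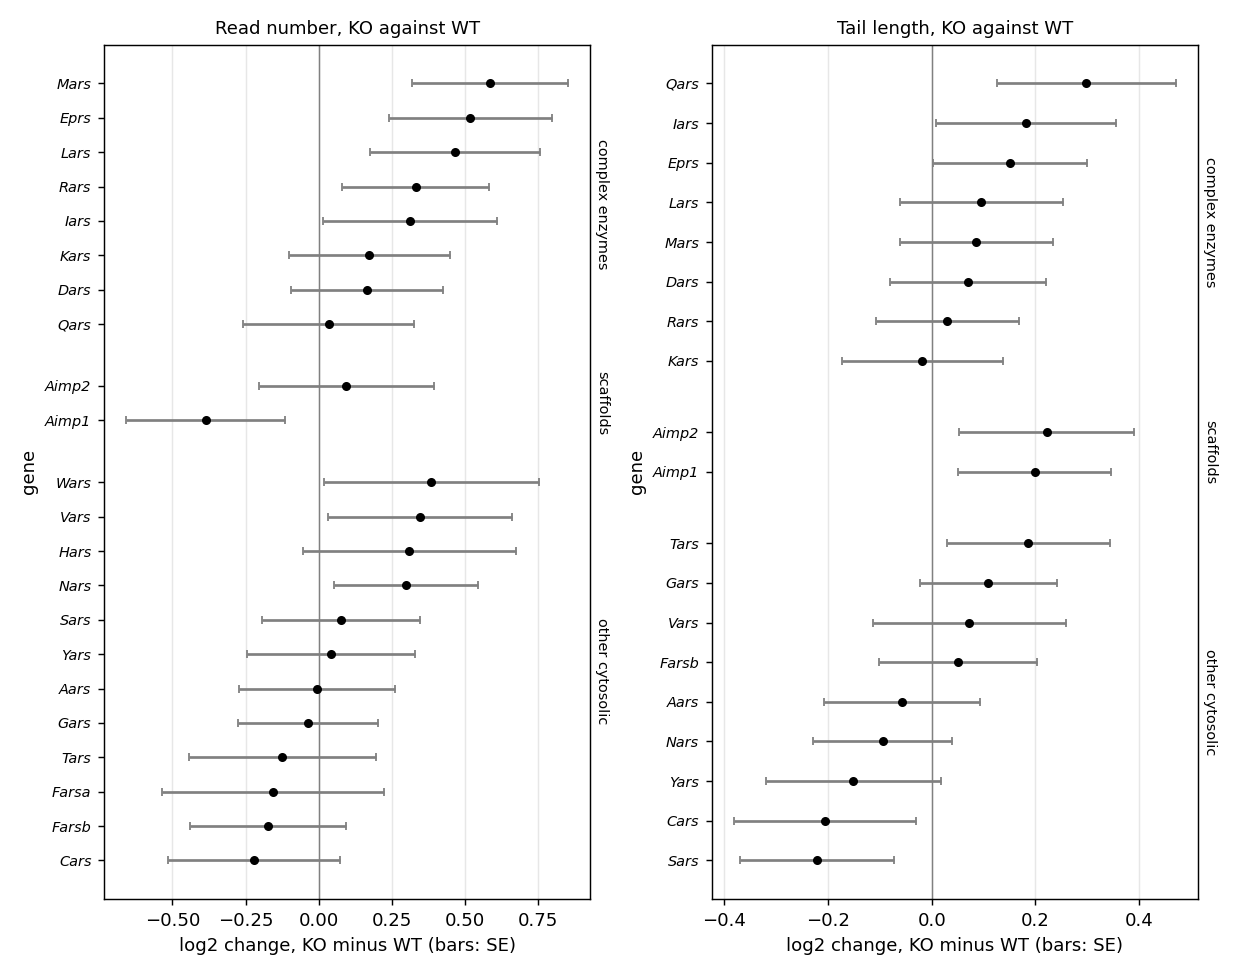
Log2 change, KO minus WT, with its standard error (bars) for read number of 22 cytosolic enzymes and scaffolds (left) and tail length of 19 members (right), grouped as in the plot of read number by library. The 8 complex enzymes lie right of 0 for read number, from 0.03 to 0.59, and none of the genes shown passed the test.

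The mitochondrial enzymes were too thinly read for a tail length per gene, so their reads were pooled by library. The 17 genes had 128 reads (WT 1), 116 (WT 2), 217 (KO 1) and 148 (KO 2). The pooled medians were 110.3, 113.1, 112.6 and 92.6 nt in the same order. For the pooled cytosolic reads they were 96.2, 101.9, 100.3 and 98.4 nt. The mitochondrial value was higher in WT 1, WT 2 and KO 1 by 14.1, 11.2 and 12.3 nt and lower in KO 2 (difference -5.79 nt). The mean difference of 7.96 nt was smaller than its SD of 9.24 nt over the 4 libraries. Long tails made up 27.9% of all mitochondrial enzyme reads (95% Wilson interval 24.5 to 31.6%) and 21.2% of cytosolic enzyme reads (20.3 to 22.1%). By library the mitochondrial shares were 28.1, 21.6, 33.2 and 25.0% and the cytosolic shares 21.2, 22.4, 21.3 and 20.1%, so WT 2 went the other way and the widest gap was in KO 1. Of the genes themselves, Yars2, for tyrosine, had 79 reads over the 4 libraries, Iars2 had 75 and Rars2, for arginine, had 68. Lars2, for leucine, had 6. Vars2, the valine enzyme, had 1 read (WT 1), 0 (WT 2), 5 (KO 1) and 6 (KO 2), and Nars2 had 1, 3, 3 and 0, numbers too low for a comparison.

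Several members were spread over more than 1 annotated transcript. In all, 51 transcripts of 29 members had at least 20 reads, and 14 members had 2 or more such transcripts. Kars was divided nearly evenly among 3 transcripts with 137, 116 and 107 reads and median tails of 87.7, 98.8 and 85.2 nt over all libraries. Nars had 5, with 72 to 318 reads and medians between 98.5 and 111.5 nt. The transcripts of Lars, with 212 and 130 reads, had nearly equal medians over all libraries, 125.3 and 126.1 nt. In WT the second had shorter medians than the first, 96.0 against 120.4 nt in WT 1 and 103.2 against 124.1 nt in WT 2, on only 8 and 26 reads. In KO 1 and KO 2 they differed by little, with 126.1 against 125.7 nt and 128.8 against 127.4 nt. Of the transcripts of Tars, the one with 228 reads had 4.39% short tails and the one with 113 reads 10.6%. In 8 of 12 members with enough reads, WT 1 had the highest share of reads on the most-read transcript. For Aimp1 this share was 92.8% (WT 1), 71.8% (WT 2), 73.3% (KO 1) and 73.7% (KO 2). For Qars it was 59.2, 27.5, 27.4 and 34.5%, and for Lars 83.7, 55.9, 59.2 and 58.4%. WT 2 thus lay with the KO libraries and WT 1 apart, as for genes in general. Whether this has a part in the differences between WT 1 and the other libraries was not tested.

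The authors' deposited table also sorts genes by whether they are Mov10 targets and, among targets, by whether they carry m6A. How the classes were defined is not given in the sources used here. In the authors' deposited table, 16 of the 20 cytosolic enzyme genes were targets, 5 of them with m6A, 1 (Wars) was a non-target and Hars, Mars and Yars had no class. Of the 17 mitochondrial enzyme genes in the authors' deposited table, 13 were non-targets and 4 were targets, among them Iars2. Both scaffolds were targets without m6A. Over all genes tested for read number, the authors' deposited table classes 18.8% as targets with m6A, 34.0% as targets without m6A and 31.4% as non-targets. The mitochondrial genes are also the thinly read ones, and class and read number were not separated. For tail length, the 12 members that were targets without m6A had a median log2 change of 0.10, beside 0.01 over all tested genes of that class, and the 5 targets with m6A had 0.05, beside 0.01. For read number, the medians were 0.03 for 15 targets without m6A and 0.08 for 5 targets with m6A, beside 0.01 and 0.17 over all genes of those classes.

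Genes that work around the synthetases were compared in the same fits. Of 17 other tRNA charging genes, 10 met the minimum for read number, 3 with a log2 change above 0 and 7 below, with a median of -0.25. By limma 0 passed, and 2 had an unadjusted p under 0.05. Over all tested genes, 49.4% were above 0 and 10.3% had an unadjusted p under 0.05. The smallest p-values belonged to Xpot, the exporter of tRNA from the nucleus, and Aarsd1, a protein that clears wrong amino acids from alanine tRNA. Xpot had 30.3 scaled RPM (WT 1), 116.7 (WT 2), 184 (KO 1) and 159 (KO 2), and the log2 change was 1.53, SE 0.42 (limma, adjusted p = 0.1702). WT 1 alone was very low, and without it the change was 0.55, while without WT 2 it was 2.46. Each of these fits leaves 1 WT library, so only the size of the change is given. Aarsd1 had 55.5 and 44.5 scaled RPM in WT and 17.1 and 28.7 in KO. Both KO libraries were below both WT libraries, an order seen in 20.5% of all tested genes. The log2 change of Aarsd1 was -1.24 (limma, adjusted p = 0.318). For tail length, 2 genes of this list were tested, Eef1e1 with a log2 change of -0.16 and Osgep with 0.08, the latter 0.00371 without WT 1.

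Genes of the amino acid stress response, the programme driven by ATF4, had read number changes on both sides of 0. Of 22 genes, 20 were tested for read number, 13 with a log2 change above 0 and 7 below, with a median of 0.07. There were 0 calls by limma and 0 genes at an unadjusted p under 0.05. Over all tested genes, 49.4% were above 0 and 10.3% had an unadjusted p under 0.05. Atf4 itself had 519 scaled RPM (WT 1), 253 (WT 2), 207 (KO 1) and 274 (KO 2). WT 1 alone was high, and the log2 change of -0.62 (limma, adjusted p = 0.510) was -0.12 without it and -1.14 without WT 2. Asns, the asparagine synthetase and a standard ATF4 target, had 691, 486, 539 and 527, a log2 change of -0.12 that was 0.13 without WT 1. Phgdh, the first enzyme of serine synthesis, had 325, 236, 401 and 395, a log2 change of 0.52, and Psat1, of the same pathway, had 441, 286, 328 and 448, a log2 change of 0.10 that was 0.39 without WT 1. Among the synthetase genes with the element in their promoter, Aars, Gars, Tars and Yars had log2 changes in read number from -0.12 to 0.04, and Iars had 0.31. For tail length, 12 genes of the list were tested, with a median log2 change of 0.03 and 0 calls. Phgdh, Shmt2, Asns and Psat1 had 0.16, 0.14, 0.03 and -0.02, and without WT 1 0.0167, 0.05, -0.00988 and -0.13.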

How the data were processed

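Poly(A) RNA was selected on oligo(dT) beads, prepared with the SQK-RNA002 direct RNA kit and sequenced as a multiplexed pool on a MinION, per the labels' protocols. Alignment used minimap2 2.20, per the submitters' processing notes; the basecaller, genome build, tail length estimator and read filters are not given in the sources used here. The deposited table gives, per the file header, 1 row per read with a transcript, symbol, library and tail length in nt, another kind of value than a count. Of 1903922 reads, 3 with length 0 were left out. Reads were collapsed per symbol and library.

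Tail length was tested with limma 3.58.1 (R 4.3.3; eBayes with log2 mean read number as trend) on log2 medians of genes with at least 20 reads in each library. Reads per gene were tallied here and entered voom in limma after median-of-ratios scaling, with a prior of 0.5 reads, for genes averaging 10 or more. P-values were adjusted by Benjamini-Hochberg over all genes, with a threshold of 0.05. Transcripts with at least 20 reads were described. Both tests were run on simulated data with planted changes larger than that of any member. Those runs do not show how often changes of the members' size would be found. Alternatives changed the summary, minimum, weights, centring, scaling, model, symbol assignment and replicate block, or left out each library; use of the most frequent symbol of each transcript was chosen after seeing the data. On shared transcripts, Aars reads lie beside Exosc6 and Aimp2 beside Eif2ak1.

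Mov10 and every member with 20 reads in each library could be named, and members below that with read numbers. Of each other list, the genes past the threshold, or the 2 with the smallest p and the 2 with the most reads, were named for read number. The values of 1 mitochondrial enzyme gene are not reported singly here. Members and lists were chosen with earlier results of these data known. Promoters and their motifs were chosen after seeing the data. Tables were handled with Python 3.11.15, pandas 2.3.3, numpy 2.4.6 and scipy 1.17.1. No coordinates of reads are given, since the build behind the table is not stated.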

Additional observations from a re-analysis of the deposited data

How the results depend on the processing

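No member passed the threshold under any alternative run, for tail length or read number. Over all genes, tail length calls were 1 with at least 10 reads and 0 to 2 with a library left out. Read number calls were 7 with total reads, 1 with upper quartile, 1 with the most frequent symbol, 96 with no filter, 66 with the replicate block, and 0 to 451 with a library left out (93 without WT 1, 451 without WT 2). Same-numbered libraries did not deviate together (correlations 0.0135 for tail length and 0.0155 for read number), so the numbers are not shown to pair them; with the block no member was called. No mitochondrial enzyme had 20 or 50 reads in each library. With at least 10, 5 had a tail value, 4 of them above 0, with a median log2 change of 0.15. Under that minimum, 49.1% of all tested genes were above 0, with a median of -0.00415.

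For tail length, the cytosolic median log2 change was 0.0206 with means of log2 lengths. With a library left out it was -0.0328 to 0.11, that of all members 0.0163 to 0.11 and that of the amino acid response list -0.0775 to 0.0889. For read number, the median over all members was 0.20 with total reads, 0.13 with upper quartile, -0.00231 with no filter and 0.14 on single-symbol transcripts; the cytosolic median was 0.29, 0.22 and 0.22 with total reads, upper quartile and single-symbol transcripts; the mitochondrial median was 0.0778 with total reads and -0.16 with no filter. With a library left out these ranged from 0.0317 to 0.17, 0.17 to 0.21 and -0.13 to 0.0173, and the amino acid response list from -0.19 to 0.22. The short tail difference under a limit of 50 nt was -2.93 percentage points. Member shares were then 16.1% (WT 1), 17.3% (WT 2), 13.2% (KO 1) and 14.4% (KO 2), beside 12.9, 12.3, 10.1 and 13.2% over all reads.

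Directions reversed for Psat1 tail length with means of log2 lengths (0.0151) and weights by read number (0.0127), and for Eef1e1 read number with total reads (0.00930). With a library left out, read number ranged from -0.0388 to 0.10 for Qars, -0.0838 to 0.33 for Aimp2, -0.37 to 0.13 for Asns, -0.22 to 0.39 for Psat1 and -0.38 to 0.17 for Eef1e1; tail length ranged from -0.00988 to 0.0722 for Asns and -0.13 to 0.0889 for Psat1. With every library kept, Mov10 passed with total reads, upper quartile and the most frequent symbol (limma, adjusted p = 0.0159, 0.0185 and 0.0199). Mov10 also passed with no filter and the replicate block (limma, adjusted p = 2.06e-06 and 9.87e-05). Under no filter and the replicate block, Xpot (limma, adjusted p = 0.0102 and 0.0185) and Zfp42 (0.0207 and 0.0156) passed too. The cause was not tested.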
